A study of Homo sapiens with 12 samples.

Results

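The 48 genes described here act in mitosis. They are the genes of the entry into mitosis, the spindle checkpoint, the kinetochore and the condensation of chromosomes that a fixed list of symbols names, and all 48 were among the 22784 symbols measured and among the 14839 that were abundant enough to test. They were measured in SK-UT-1, a long-established human line from a uterine leiomyosarcoma (uLMS), which is a malignant smooth muscle tumor, and the study asked how blocking the bromodomains of BET proteins changes its transcriptome. Cells were treated for 48 h with DMSO, the vehicle, with 5 µM JQ1 or with 5 µM I-BET-762 (I-BET, then a space and the number, in the labels), so that both inhibitors were given at 1 dose and 1 time, and total RNA was sequenced. Which inhibitor a library received is known here from the sample labels and the matching column names alone, with no independent check. Every direction between the inhibitors rests on those names. The paper counts more changed genes with I-BET-762 than with JQ1, at cutoffs that may differ. Here JQ1 changed more genes past 1.5-fold, 3379 lower and 1979 higher, against 2662 and 1329 with I-BET-762. The names were followed as given, and whether they are exchanged was not tested. The labels give 4 libraries to each group, and values for 3 DMSO libraries (replicates 13 to 15), 4 JQ1 libraries (17 to 20) and 3 I-BET-762 libraries (21 to 23) were analysed. The labels do not say that the libraries of a group came from separate cultures of this single line, so the p-values measure the spread between these libraries, which may be technical.

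BET proteins bind acetylated lysines on histones and help RNA polymerase to transcribe, and JQ1 and I-BET-762 compete for the pocket that holds the acetylated lysine. JQ1 is a thienotriazolodiazepine, and I-BET-762 shares its fused triazole and diazepine rings with a benzene ring in place of the thiophene. Mitosis is driven by the kinase CDK1 bound to cyclins, which are made anew in each cycle. The spindle checkpoint then holds cells in metaphase until every kinetochore, the protein structure that joins a chromosome to spindle microtubules, is attached, and the anaphase-promoting complex (APC/C) ends mitosis by marking cyclin B and securin for destruction. Many of these genes are transcribed late in the cycle under shared factors. The MuvB core of the DREAM complex, which represses them in resting cells, and the activators B-MYB and FOXM1 act through a promoter element called CHR, and the factor NF-Y acts through CCAAT boxes.

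These promoter elements were looked for in the RefSeq sequences (GRCh38.p14) that run from 250 bases before to 50 bases after each gene's start, of which 40 of the 48 genes have one. The 8 genes without one are AURKA, TPX2, BIRC5, BUB3, TTK, UBE2C, WEE1 and PKMYT1. The letters searched were TTTGAA or TTCGAA for the CHR and CCAAT for the CCAAT box, on both strands. CHR letters stood in 28 of the 40 promoters (70.0%), against 11.1% of the 11244 promoters of tested genes and 16.6% of all 27305 promoters. CCAAT letters were also found in 28 of 40 (70.0%), against 36.5% and 35.7%. Both were present in 20 of 40 (50%), against 4.7% of tested genes and 6.6% of all promoters. These shares are a description of letters and do not show that a factor binds.

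The following stretches, on the gene's strand and ending before its first annotated exon, show the layout in genes to which the results return, namely 4 that fell with both inhibitors and then CDC20 and NCAPH, which rose with both. Capitals mark the CHR and CCAAT letters.
ESPL1 (chr12:53268184-53268298, plus strand): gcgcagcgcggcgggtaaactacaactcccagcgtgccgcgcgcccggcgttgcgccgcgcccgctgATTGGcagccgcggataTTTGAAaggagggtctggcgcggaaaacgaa
CCNB2 (chr15:59105031-59105125, plus strand): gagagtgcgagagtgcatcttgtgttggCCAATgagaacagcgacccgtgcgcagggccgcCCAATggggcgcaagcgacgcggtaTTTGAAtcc
MKI67 (chr10:128126424-128126538, minus strand): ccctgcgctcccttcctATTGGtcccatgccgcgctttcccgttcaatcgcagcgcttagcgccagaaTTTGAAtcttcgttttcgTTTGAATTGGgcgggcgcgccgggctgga
SPC24 (chr19:11155808-11155897, minus strand): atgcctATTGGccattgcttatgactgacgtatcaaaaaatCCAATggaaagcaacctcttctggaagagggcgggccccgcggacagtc
CDC20 (chr1:43358866-43358980, plus strand): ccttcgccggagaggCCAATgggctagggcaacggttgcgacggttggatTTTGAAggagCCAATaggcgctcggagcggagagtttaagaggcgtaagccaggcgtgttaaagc
NCAPH (chr2:96335651-96335765, plus strand): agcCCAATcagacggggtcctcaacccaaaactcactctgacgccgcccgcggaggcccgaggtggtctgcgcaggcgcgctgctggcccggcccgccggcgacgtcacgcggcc

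In ESPL1, CCNB2 and CDC20, CHR letters lie downstream of CCAAT letters, in CDC20 with a further CCAAT between the CHR and the start. MKI67 holds TTTGAA at 2 places, and the one nearer the start overlaps a CCAAT on the other strand. SPC24 and NCAPH have CCAAT letters and no CHR letters in the stretch shown. CHR letters were present in 19 of the 27 promoters of genes that fell with JQ1 (70.4%), in 4 of the 7 that rose (57.1%) and in 5 of the 6 with no call (83.3%). With I-BET-762 the counts were 19 of 27 (70.4%), 1 of 3 (33.3%) and 8 of 10 (80.0%). CCAAT letters stood in 20 of the 27 genes that fell with JQ1 (74.1%), 3 of the 7 that rose (42.9%) and 5 of the 6 with no call (83.3%). CCAAT letters at 2 or more places were seen in 15 of the 27 (55.6%), 1 of the 7 (14.3%) and 4 of the 6 (66.7%), and CHR with CCAAT letters in 14 (51.9%), 2 (28.6%) and 4 (66.7%). With I-BET-762, CCAAT letters stood in 20 of 27 genes that fell, 2 of 3 that rose and 6 of 10 without a call. In the same order, 15, 1 and 4 held CCAAT letters at 2 or more places. CHR with CCAAT letters stood in 14, 1 and 5. These groups are small and were not tested against each other.

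**Figure D1:**
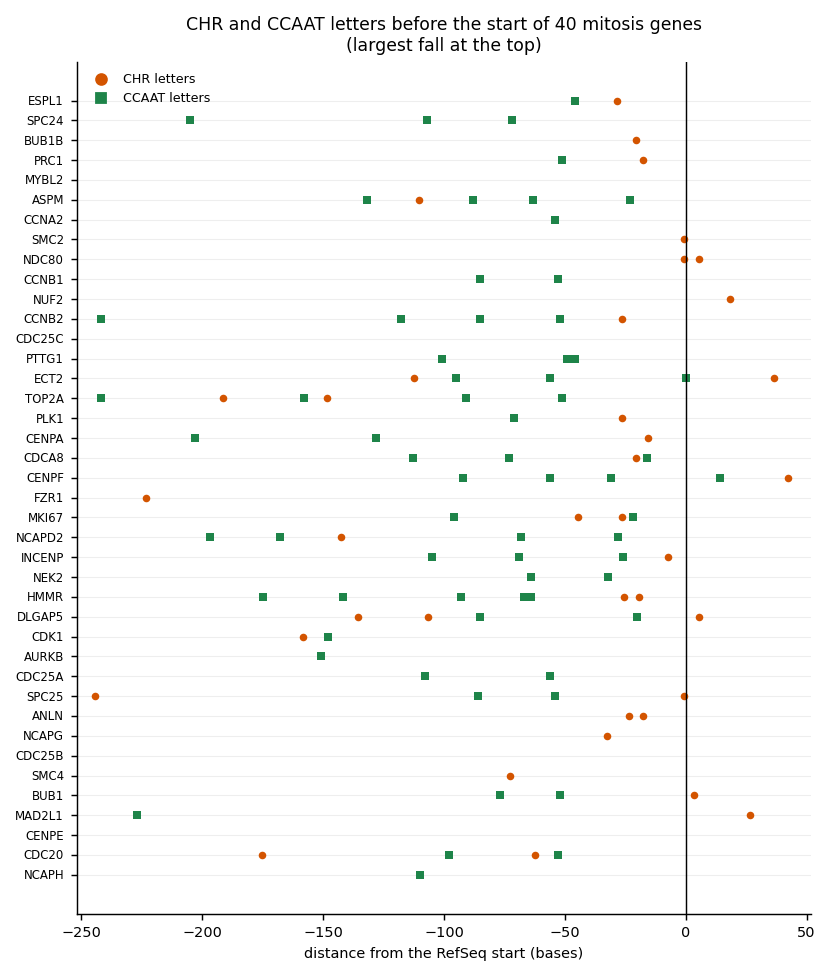
Positions of CHR letters (orange circles) and CCAAT letters (green squares) in the promoters of 40 mitosis genes, with the distance from the RefSeq start in bases on the x axis and the genes ordered from the largest fall against DMSO (mean over both inhibitors) at the top to the largest rise at the bottom. The 8 mitosis genes without such a sequence are not drawn, among them AURKA, which had the largest fall of all. Most CCAAT letters lie within 150 bases before the start. Among the 4 genes at the bottom, CDC20 holds CHR letters before the start and MAD2L1 after it, and NCAPH and CENPE hold none.

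Most of the 48 genes fell with both inhibitors, and most of the falls were small. With JQ1, 34 of the 48 genes fell, 7 rose and 7 had no call at an adjusted p-value under 0.05 by limma with Benjamini-Hochberg adjustment over all tested genes. Over all genes tested, 35.6% were called lower and 36.0% higher. I-BET-762 lowered 33 of the 48 and raised 3, and 12 had no call, with 31.3% of all tested genes called lower and 29.9% higher. JQ1 gave the 48 genes a median log2 fold change of −0.37, and I-BET-762 one of −0.28, while the medians over all tested genes were 0.01 and −0.00. Differentially expressed genes (DEGs), which also had to change by more than 1.5-fold (0.585 on the log2 scale), were fewer among the 48 than this count of falls. JQ1 gave 9 lower DEGs of 48 (22.8% of all tested genes) and 0 higher DEGs (13.3% of all tested genes), and I-BET-762 gave 3 lower (17.9% of all) and 0 higher (8.96% of all). The numbers of lower DEGs among the 48 rest on the scaling, with 20 and 7 for libraries rescaled to equal totals and 14 and 5 for equal upper quartiles. Limma-voom on the recovered reads also gave 0 higher DEGs with each inhibitor. The largest rises, 0.54 with JQ1 and 0.58 with I-BET-762, both of NCAPH, lay just under 1.5-fold.

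Both comparisons use the same DMSO libraries, so their values for the same gene are given side by side and are not independent of each other. Called lower with both were 32 genes, called higher with both were 3 (CDC20, CENPE and NCAPH), and 0 had opposite calls. Of the 32, 26 had the larger fall with JQ1, by the treatment names given. The shares of all tested genes with such joint calls were not counted, so these counts show no trait particular to the 48. In bulk RNA, fewer cells in a given phase of the cycle and less RNA per cell cannot be told apart. The median difference of the 48 genes from the DMSO means was −0.37, −0.28, −0.35 and −0.43 in JQ1 replicates 17 to 20, and −0.28, −0.25 and −0.28 in I-BET-762 replicates 21 to 23, so every treated library showed the fall. JQ1 replicate 18 was the highest of its group for 30 of the 48 genes and replicate 20 the lowest for 26, and with each library left out in turn the JQ1 median stayed between −0.39 and −0.36 and that of I-BET-762 between −0.30 and −0.26. The directions rest in part on scaling. With libraries rescaled to equal totals, the median of all genes itself shifted (−0.18 under JQ1, −0.10 under I-BET-762), the medians of the 48 genes to −0.55 and −0.37, and the JQ1 calls to 39 lower and 2 higher.

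**Figure D2:**
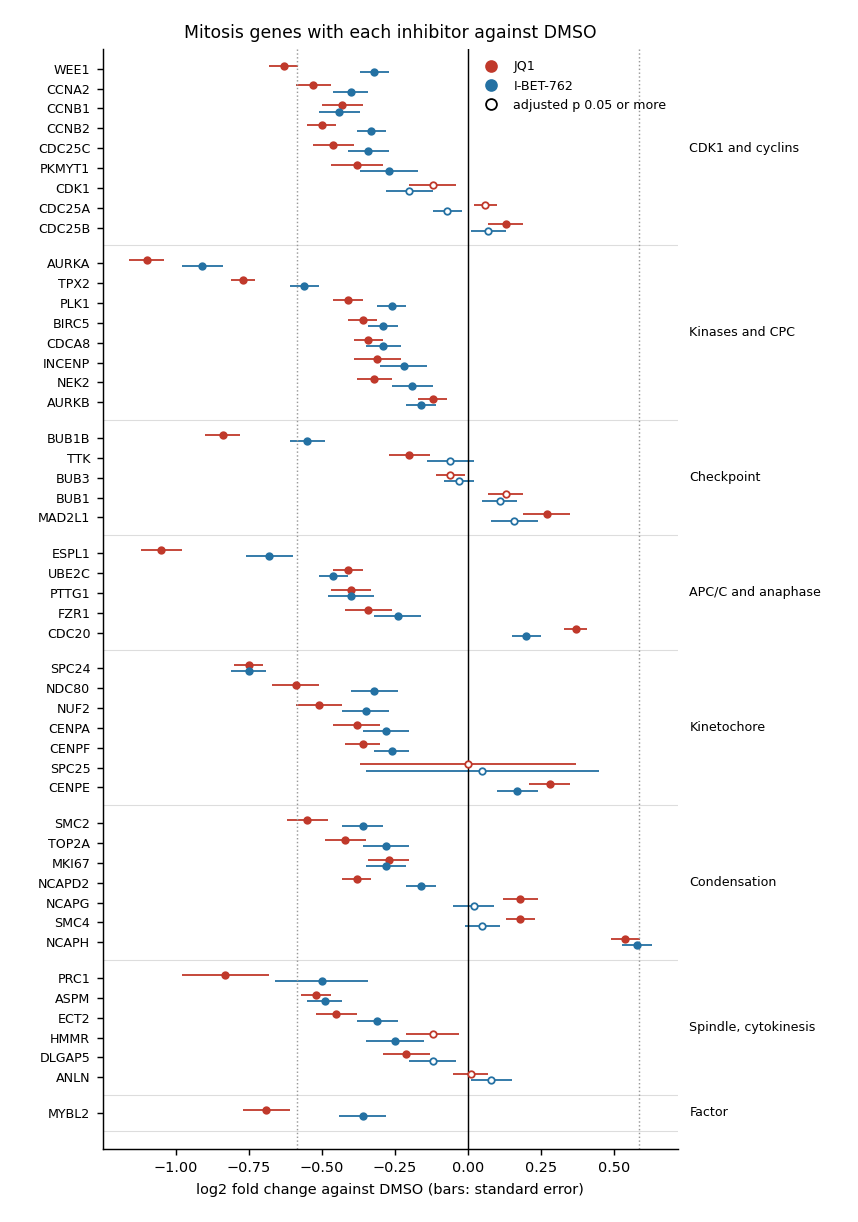
Log2 fold changes against DMSO of the 48 mitosis genes by role, with JQ1 in red and I-BET-762 in blue. Bars are standard errors, filled points have an adjusted p-value under 0.05, and dotted lines mark 1.5-fold. Most points lie left of 0 and between the dotted lines, AURKA and ESPL1 lie farthest left at −1.10 and −1.05 with JQ1, and NCAPH lies farthest right, while CDC25A, CDC25B, BUB1, NCAPG, SMC4 and ANLN turn below 0 with JQ1 when libraries are rescaled to equal totals.

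In DMSO, the level per kilobase of exon differed widely among the 48 genes. TOP2A was the most abundant with 9897 normalized counts per kb, followed by CCNB1 with 6179, and SPC25 (11.4) and PRC1 (21.2) were the lowest. Values below are normalized counts per library, and changes are log2 fold changes on the scale log2(normalized count + 1) with their standard error (SE). The role groups below are small, and their counts of calls were not tested against the shares of all tested genes. Those shares were 35.6% lower and 36.0% higher with JQ1, and 31.3% and 29.9% with I-BET-762.

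The first group holds CDK1, its cyclins, and the enzymes that add or remove its inhibitory phosphates. Of the 9 genes, 6 fell with each inhibitor, 1 rose with JQ1 and 0 rose with I-BET-762. WEE1 (ENSG00000166483.12, chr11:9573670-9593457), the kinase that restrains CDK1, had the largest fall of the group with JQ1, while with I-BET-762 that of CCNB1 was the largest. Its counts were 3433, 3680 and 3468 with DMSO, 2291, 2393, 2138 and 2306 with JQ1, and 2780, 2846 and 2836 with I-BET-762. The 3 groups did not overlap, and I-BET-762 lay between the others. The changes were −0.63 (SE 0.05, adjusted p = 1.12e-08 by limma) with JQ1, past 1.5-fold, and −0.32 (SE 0.05, adjusted p = 7.06e-05 by limma) with I-BET-762. PKMYT1, the membrane-bound kinase with the same role, changed by −0.38 and −0.27. The cyclins fell together, CCNA2 by 0.53 and 0.40, CCNB1 by 0.43 and 0.44, and CCNB2 by 0.50 and 0.33 on the log2 scale. CDK1 itself had no call, at −0.12 (adjusted p = 0.176 by limma) and −0.20 (adjusted p = 0.0504 by limma).

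The 3 phosphatases that activate CDK1 by removing those phosphates had different calls. CDC25C fell with both, by 0.46 and 0.34 on the log2 scale, and CDC25A had no call with either, at 0.06 and −0.07, although with equal totals it was called lower with both, at −0.13 and −0.16. CDC25B (ENSG00000101224.18, chr20:3786772-3806121) had counts of 3283, 2879 and 3027 with DMSO, 3201, 3187, 3438 and 3602 with JQ1, and 3238, 3159 and 3213 with I-BET-762. The groups overlapped. Its changes were 0.13 (SE 0.06, adjusted p = 0.0446 by limma) with JQ1 and 0.07 (adjusted p = 0.352 by limma) with I-BET-762, and the first turned to −0.05 with libraries rescaled to equal totals. That JQ1 call was also lost without DMSO replicate 14 or 15, JQ1 replicate 19 or 20, or any of the I-BET-762 replicates (0.09 to 0.13), and the call of PKMYT1 with I-BET-762 without DMSO replicate 14 or 15 or I-BET-762 replicate 22 or 23. CDK1 with I-BET-762 passed the threshold without DMSO replicate 13, JQ1 replicate 18 or JQ1 replicate 20, and with JQ1 without JQ1 replicate 18. It also passed with I-BET-762 under a pseudocount of 5, with only the 2 groups compared and by limma-voom, and with both inhibitors after either rescaling (−0.31 and −0.30 with equal totals). PKMYT1 shares 31.9% of its exon bases with genes on the opposite strand, and whether the read counting used strand is not given in the sources used here.

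The mitotic kinases and the chromosomal passenger complex, which corrects faulty attachments, had 8 of 8 genes that fell with each inhibitor. AURKA (ENSG00000087586.18, chr20:56369389-56392337), the kinase that matures centrosomes and builds the spindle, had the largest fall of the 48. Its counts were 5349, 6052 and 5709 with DMSO, 2632, 2970, 2516 and 2511 with JQ1, and 3034, 3127 and 2932 with I-BET-762. Treated libraries lay far below every DMSO library, and the inhibitors overlapped. Its changes were −1.10 (SE 0.06, adjusted p = 2.00e-10 by limma) and −0.91 (SE 0.07, adjusted p = 1.05e-08 by limma), so that the level fell by 53.4% with JQ1 and fell by 46.8% with I-BET-762. TPX2 (ENSG00000088325.16, chr20:31739271-31801805), which activates AURKA and brings it to spindle microtubules, fell beside it. Its counts were 14790, 15879 and 15664 with DMSO, 8770, 9379, 8972 and 8978 with JQ1, and 10290, 10763 and 10424 with I-BET-762, again with no overlap between groups. The changes were −0.77 (SE 0.04, adjusted p = 2.64e-10 by limma) and −0.56 (SE 0.05, adjusted p = 6.36e-08 by limma), and only that with JQ1 passed 1.5-fold, although without DMSO replicate 13 that with I-BET-762 did too.

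PLK1, the polo kinase of centrosomes and kinetochores, fell by 0.41 and 0.26 on the log2 scale, and NEK2, which separates centrosomes, by 0.32 and 0.19. In the passenger complex, the targeting subunits BIRC5 (−0.36 and −0.29) and CDCA8 (−0.34 and −0.29) and the scaffold INCENP (−0.31 and −0.22) fell with both, and so did its kinase AURKB (−0.12 and −0.16). The AURKB call with JQ1 (adjusted p = 0.0284 by limma) was lost without DMSO replicate 13 or 14 or JQ1 replicate 17 or 19, and that with I-BET-762 without DMSO replicate 13. With I-BET-762, the call of NEK2 was lost without DMSO replicate 14 or 15 or any of the I-BET-762 replicates, and that of INCENP without DMSO replicate 13 or 15 or I-BET-762 replicate 21 or 22. PLK1 shares 12.8% of its exon bases with genes on the opposite strand, whose part in its counts was not tested.

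The spindle checkpoint genes split. BUB1B fell with both, TTK fell with JQ1, MAD2L1 rose with JQ1, and BUB1 and BUB3 had no call with either. BUB1B (ENSG00000156970.13, chr15:40161023-40221123) encodes BUBR1, part of the complex that inhibits the APC/C. Its counts were 7261, 7880 and 7678 with DMSO, 3933, 4811, 4127 and 4128 with JQ1, and 5185, 5307 and 5118 with I-BET-762. The 3 groups were apart, with JQ1 lowest. Its changes of −0.84 (SE 0.06, adjusted p = 3.62e-09 by limma) and −0.55 (SE 0.06, adjusted p = 2.26e-06 by limma) mean that the level fell by 44.3% and fell by 31.6%. MAD2L1 (ENSG00000164109.14, chr4:120055623-120066858), which encodes MAD2, the protein of the same complex that is loaded at unattached kinetochores, went the other way. Its counts were 6051, 6912 and 6766 with DMSO, 7718, 9356, 7664 and 7051 with JQ1, and 7256, 7686 and 7015 with I-BET-762. All treated libraries lay above the DMSO libraries, the lowest of them by a small margin. The change was 0.27 (SE 0.08, adjusted p = 0.00559 by limma) with JQ1 and 0.16 (SE 0.08, adjusted p = 0.114 by limma) with I-BET-762.

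With libraries rescaled to equal totals, the MAD2L1 change with JQ1 was 0.08 and had no call (with I-BET-762 MAD2L1 was called without JQ1 replicate 18), while that of BUB1B kept its call under every alternative tried. TTK, the kinase MPS1 that starts the checkpoint signal, changed by −0.20 (adjusted p = 0.0206 by limma) under JQ1 and −0.06 under I-BET-762, and the former call was lost without DMSO replicate 14 or 15 or JQ1 replicate 17, 19 or 20. BUB1 stood at 0.13 (adjusted p = 0.0614 by limma) and 0.11, and passed the threshold with JQ1 without JQ1 replicate 19 or 20 and with I-BET-762 without JQ1 replicate 18. With equal totals its JQ1 value turned to −0.06 with no call. BUB3 stood at −0.06 and −0.03, and with equal totals at −0.25 (adjusted p = 7.21e-06 by limma) and −0.12, both called. It was also called lower with JQ1 with equal upper quartiles or without JQ1 replicate 18, and TTK with I-BET-762 with equal totals. BUB1B shares 10.2% of its exon bases with the readthrough gene BUB1B-PAK6, whose part in the counts was not tested.

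Around the APC/C and anaphase, 4 of 5 genes fell and CDC20 rose with each inhibitor. ESPL1 (ENSG00000135476.12, chr12:53268299-53293638) encodes separase, the protease that cleaves cohesin at anaphase. Its counts were 3706, 3400 and 3390 with DMSO, 1678, 1546, 1577 and 1991 with JQ1, and 2262, 2135 and 2127 with I-BET-762. The groups did not overlap. It was a DEG with both inhibitors, at −1.05 (SE 0.07, adjusted p = 3.11e-09 by limma) and −0.68 (SE 0.08, adjusted p = 1.83e-06 by limma). PTTG1, which encodes securin, the inhibitor of separase, changed by −0.40 with each inhibitor. CDC20 (ENSG00000117399.14, chr1:43358981-43363203), the APC/C activator that the checkpoint holds back, had 10162, 10100 and 9870 counts with DMSO, 12235, 13103, 13162 and 13535 with JQ1, and 11426, 11494 and 11633 with I-BET-762. Here the order was turned round, with DMSO lowest, JQ1 highest and no overlap. The changes were 0.37 (SE 0.04, adjusted p = 1.47e-06 by limma) and 0.20 (SE 0.05, adjusted p = 0.00191 by limma). The former kept its call under every alternative, and the latter had no call at 0.10 with equal totals. FZR1, the activator that replaces CDC20 late in mitosis, fell by 0.34 and 0.24 on the log2 scale, and UBE2C, the ubiquitin-conjugating enzyme of the APC/C, by 0.41 and 0.46. The FZR1 call with I-BET-762 was lost without DMSO replicate 13 or I-BET-762 replicate 22, and PTTG1 has closely similar retrogene copies whose part in its counts was not tested.

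At the kinetochore, 5 of 7 genes fell, CENPE rose and SPC25 had no call with each inhibitor. The NDC80 complex, the 4-part rod that grips microtubules, had 3 members that fell. SPC24 (ENSG00000161888.12, chr19:11131520-11155807) had 1398, 1450 and 1477 counts with DMSO, 861.5, 859.5, 840.4 and 856.0 with JQ1, and 830.5, 887.3 and 848.6 with I-BET-762. Treated libraries were all below DMSO and the 2 inhibitors overlapped. Its change was −0.75 with each, with an SE of 0.05 and an adjusted p of 3.27e-09 with JQ1 and an SE of 0.06 and an adjusted p of 1.73e-08 with I-BET-762, by limma. NDC80 (ENSG00000080986.13, chr18:2571557-2616635) had 3716, 4069 and 4137 counts with DMSO, 2568, 3116, 2537 and 2391 with JQ1, and 3252, 3302 and 3002 with I-BET-762. All treated libraries were below DMSO, and JQ1 replicate 18 lay within the I-BET-762 range. NDC80 changed by −0.59 (SE 0.08, adjusted p = 3.27e-06 by limma), just past 1.5-fold, and −0.32 (SE 0.08, adjusted p = 0.00280 by limma). The former was no longer past 1.5-fold without DMSO replicate 14 or 15 or JQ1 replicate 17, 19 or 20. NUF2, its partner in the rod, fell by 0.51 and 0.35 on the log2 scale, and passed 1.5-fold with JQ1 without JQ1 replicate 18. SPC25, the partner of SPC24, was too scarce for a statement, with 8.2 to 32.9 counts with DMSO, 14.1 to 26.0 under JQ1 and 16.7 to 21.7 under I-BET-762.

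CENPE (ENSG00000138778.14, chr4:103105349-103198445), a kinesin that carries chromosomes to the spindle equator, had 11062, 12162 and 12461 counts with DMSO, 14180, 16473, 14403 and 12991 with JQ1, and 13203, 13573 and 13315 with I-BET-762. All treated libraries were above DMSO. The change was 0.28 (SE 0.07, adjusted p = 0.00121 by limma) with JQ1. I-BET-762 gave 0.17 (SE 0.07, adjusted p = 0.0490 by limma), a call lost without DMSO replicate 13 or 14, JQ1 replicate 17 or 19, or any I-BET-762 replicate (0.12 to 0.19), and with equal totals neither call held (0.10 and 0.07). CENPA, the histone variant that marks centromeres, fell by 0.38 and 0.28 on the log2 scale, and CENPF, a large protein of the outer kinetochore, by 0.36 and 0.26.

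**Figure D3:**
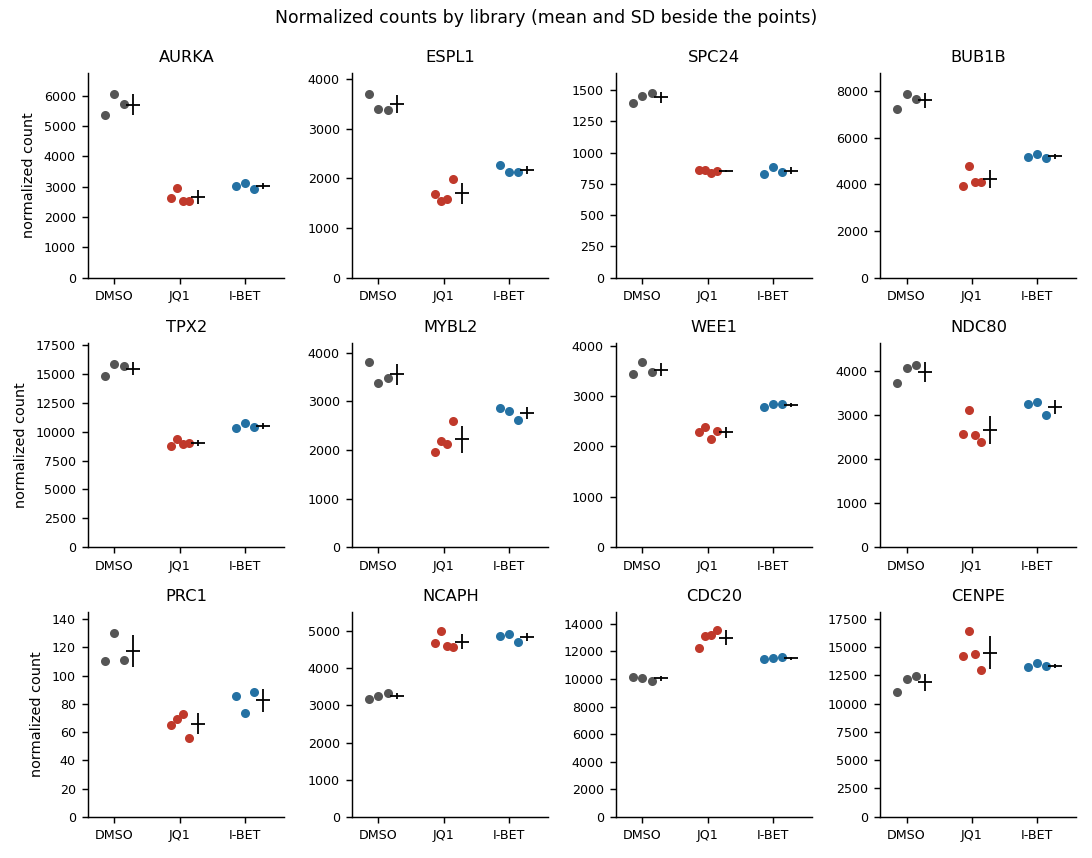
Normalized counts in each of the 10 libraries for 12 mitosis genes, grouped as DMSO (grey), JQ1 (red) and I-BET-762 (blue, drawn as I-BET) on y axes that start at 0, with the group mean and SD in black beside the points. In 9 genes the treated libraries lie below all DMSO libraries, and in NCAPH, CDC20 and CENPE they lie above. The rise of CENPE loses its call with both inhibitors, and that of CDC20 with I-BET-762, when libraries are rescaled to equal totals. The 12 genes are a selection. In the full list of mitosis genes, all JQ1 libraries lay below DMSO for 31 genes and all I-BET-762 libraries for 35. All JQ1 libraries lay above DMSO for CDC25A, MAD2L1, CDC20, CENPE, NCAPG, NCAPH and SMC4. All I-BET-762 libraries did so for BUB1, MAD2L1, CDC20, CENPE and NCAPH. The share of all tested genes with such separation was not counted.

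The genes of chromosome condensation moved in both directions. With JQ1, 4 of 7 fell and 3 rose, and with I-BET-762, 4 fell and 1 rose. Of all tested genes, 35.6% fell and 36.0% rose with JQ1, and 31.3% and 29.9% with I-BET-762. The split of these 7 genes was not tested against those shares. Condensin I, the ring that compacts mitotic chromosomes, has the subunits SMC2, SMC4, NCAPD2, NCAPG and NCAPH. NCAPH (ENSG00000121152.10, chr2:96335766-96377091), which closes the ring, showed the largest rise of the 48. Its counts were 3170, 3245 and 3323 with DMSO, 4683, 5009, 4590 and 4576 with JQ1, and 4866, 4926 and 4720 with I-BET-762. The treated libraries all lay above DMSO and overlapped each other. Its changes of 0.54 (SE 0.05, adjusted p = 3.07e-08 by limma) and 0.58 (SE 0.05, adjusted p = 6.56e-08 by limma) are rises of 45.2% and 49.0%, and the call with both held under every alternative. Without DMSO replicate 15 or I-BET-762 replicate 23, NCAPH passed 1.5-fold with I-BET-762.

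SMC2 (ENSG00000136824.19, chr9:104094260-104141419), an ATPase of the same ring, fell instead. It had 9670, 10889 and 10814 counts with DMSO, 6964, 8154, 7034 and 6489 with JQ1, and 8219, 8393 and 7882 with I-BET-762. All treated libraries were below DMSO, and the inhibitors overlapped. The changes were −0.55 (SE 0.07, adjusted p = 1.92e-06 by limma) and −0.36 (SE 0.07, adjusted p = 0.000465 by limma), and the former passed 1.5-fold without DMSO replicate 13 or JQ1 replicate 18. NCAPD2 fell as well, by 0.38 and 0.16 on the log2 scale. NCAPG and SMC4 each rose by 0.18 with JQ1 and stood at 0.02 and 0.05 with I-BET-762, and both rises turned to −0.01 with equal totals. The NCAPG call was also lost without DMSO replicate 13, and opposite-strand genes share 33.7% of the exon bases of NCAPG and 22.0% of those of SMC4. TOP2A, the topoisomerase that untangles DNA, fell by 0.42 and 0.28, and MKI67, which coats mitotic chromosomes and is the proliferation marker Ki-67, by 0.27 and 0.28 on the log2 scale.

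Among the genes of the spindle and of cytokinesis, 4 of 6 fell with each inhibitor and 0 rose. ASPM, which acts at spindle poles, fell by 0.52 and 0.49 on the log2 scale, and ECT2, the activator of RhoA at the cleavage furrow, by 0.45 and 0.31. PRC1 (ENSG00000198901.14, chr15:90966040-90995629) bundles the microtubules of the central spindle. Its counts were low, 110.4, 130.4 and 111.0 with DMSO, 64.8, 69.6, 73.0 and 55.8 with JQ1, and 85.6, 73.2 and 88.6 with I-BET-762. The groups did not overlap, though JQ1 and I-BET-762 nearly met. The changes were −0.83 (SE 0.15, adjusted p = 9.24e-05 by limma) and −0.50 (SE 0.16, adjusted p = 0.0105 by limma), the latter without a call when DMSO replicate 14 (−0.43) or I-BET-762 replicate 22 (−0.42) was left out. Of the 5523 exon bases of PRC1, 61.9% are shared with other genes, 3181 of them with a gene on the same strand, and the part of this sharing in the low counts was not tested.

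ANLN (ENSG00000011426.11, chr7:36389821-36453791), which encodes anillin, the scaffold of the contractile ring, was level across groups within its spread. It had 20327, 22164 and 21708 counts with DMSO, 20916, 24739, 21127 and 19782 with JQ1, and 22716, 22974 and 22162 with I-BET-762. The JQ1 libraries spanned the range of the other groups. Its changes were 0.01 (SE 0.06, adjusted p = 0.876 by limma) and 0.08 (SE 0.07, adjusted p = 0.328 by limma), and the former became −0.17 with a call (adjusted p = 0.00448 by limma) with equal totals. HMMR, a spindle protein that binds microtubules, stood at −0.12 with JQ1 and fell by 0.25 on the log2 scale with I-BET-762. DLGAP5, which stabilizes spindle fibers at kinetochores, fell by 0.21 with JQ1 and stood at −0.12 with I-BET-762. The HMMR call was lost without DMSO replicate 14 or 15 or any I-BET-762 replicate. That of DLGAP5 was lost without DMSO replicate 14 or 15 or JQ1 replicate 17 or 20. After either rescaling, or without JQ1 replicate 18, HMMR was called lower with JQ1 and DLGAP5 with I-BET-762 as well.

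MYBL2 (ENSG00000101057.16, chr20:43667019-43716495) encodes B-MYB, the activator of the late cell cycle genes among these 48. Its counts were 3801, 3377 and 3487 with DMSO, 1966, 2184, 2119 and 2603 with JQ1, and 2861, 2800 and 2621 with I-BET-762. The groups were apart, although JQ1 replicate 20 came close to the lowest I-BET-762 library. Its changes were −0.69 (SE 0.08, adjusted p = 7.28e-07 by limma) and −0.36 (SE 0.08, adjusted p = 0.00120 by limma), and the former passed 1.5-fold.

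The inhibitors were compared directly at the shared dose and time, 1 pair of compounds over the 48 genes with p-values adjusted over all tested genes. Each direction here holds only if the treatment names are as meant, and an exchange of the names would reverse it. JQ1 lay below I-BET-762 for 11 of the 48 genes and above it for 2, with 14.0% of all tested genes called lower and 13.3% called higher. Of the 48, 0 were DEGs between the inhibitors, by limma and by limma-voom alike, against 5.31% of all tested genes by limma. No estimate among the 48 reached 1.5-fold, so this count did not depend on the p-values. The median difference was −0.09 on the log2 scale. ESPL1 differed most, at −0.36 (95% interval −0.52 to −0.21, adjusted p = 0.00203 by limma), followed by MYBL2 at −0.32 (−0.49 to −0.16), WEE1 at −0.31 (−0.41 to −0.20) and BUB1B at −0.30 (−0.42 to −0.17). NDC80 (−0.27), NCAPD2 (−0.22), TPX2 (−0.22), AURKA (−0.19), SMC2 (−0.19), CCNB2 (−0.16) and PLK1 (−0.15) made up the rest. The 2 genes higher with JQ1 were CDC20 at 0.17 (0.08 to 0.27, adjusted p = 0.00876 by limma) and CDC25A at 0.13 (0.04 to 0.22, adjusted p = 0.0367 by limma). CDC25A had no call against DMSO, where the JQ1 libraries all lay above and the I-BET-762 libraries all below the DMSO libraries. The lowest JQ1 library (3143, replicate 19) nearly met the highest DMSO library (3142, replicate 14).

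For the other 35 genes no difference between the inhibitors was called, which does not show that they act alike on them. The 95% interval stayed within 1.5-fold in either direction for 33 of the 35. SPC24 is an example at −0.00 (−0.11 to 0.11), and NCAPH another at −0.04 (−0.14 to 0.06). The exceptions were the scarce SPC25 (−0.85 to 0.74) and PRC1 (−0.63 to −0.01). The number of lower calls depended on single libraries, with 21 when JQ1 replicate 18 was left out and 6 without I-BET-762 replicate 21 or 22, and the number of higher calls was 4 without JQ1 replicate 20 and 1 without DMSO replicate 14 or 15 or any I-BET-762 replicate. With equal totals the split became 27 lower and 0 higher. WEE1, TPX2, BUB1B, ESPL1, NCAPD2 and MYBL2 were called lower with JQ1 under every alternative tried, and each of the other calls between the inhibitors was lost under some.

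**Figure D4:**
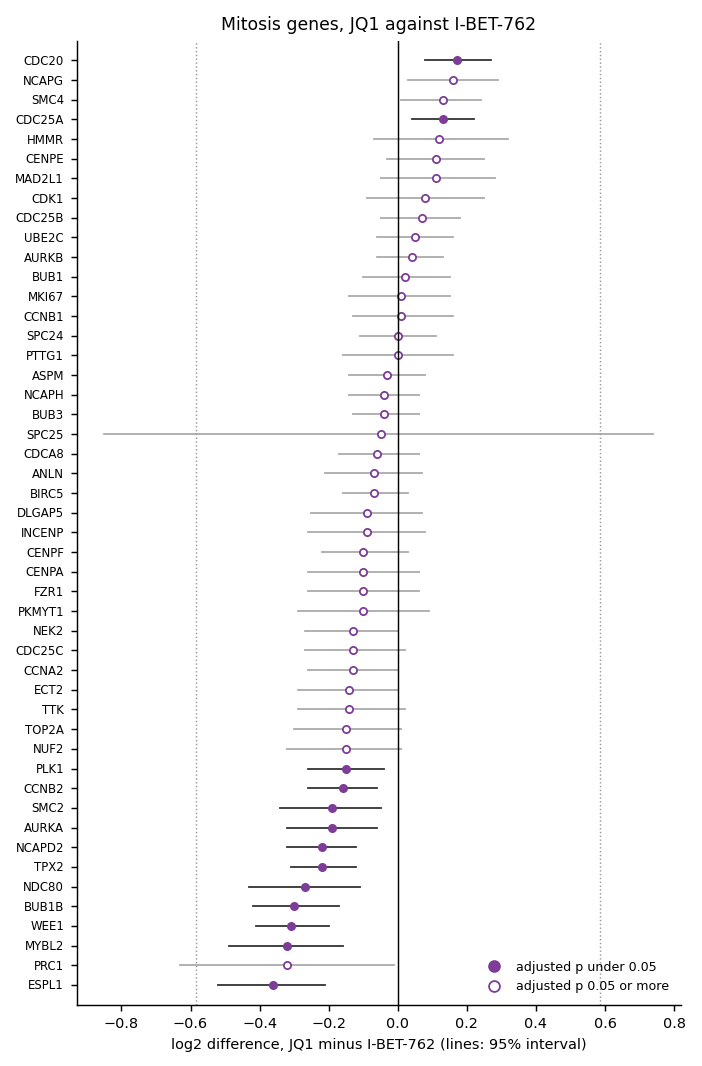
Log2 difference between JQ1 and I-BET-762 for each of the 48 mitosis genes, with 95% intervals as lines, filled points for an adjusted p-value under 0.05 and dotted lines at 1.5-fold. The 11 filled points left of 0 are genes lower with JQ1, the 2 on the right, which lose their calls with equal totals, are CDC20 and CDC25A, and only the intervals of SPC25 and PRC1 reach a dotted line.

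Other genes of the same machinery, from lists that do not include the 48, moved in both directions. The shares of all tested genes to read these counts against are again 35.6% lower and 36.0% higher with JQ1, and 31.3% and 29.9% with I-BET-762. Of 34 further kinetochore and checkpoint genes tested, 9 fell and 6 rose with JQ1 (median −0.03), and 6 fell and 6 rose with I-BET-762 (median 0.02). CENPN, a reader of the centromeric nucleosome, changed most on average in that list, by 0.61 and 0.54 on the log2 scale. Among 16 core subunits and regulators of the APC/C, 1 fell and 7 rose with JQ1 (median 0.10), and 2 fell and 7 rose with I-BET-762 (median 0.16). The subunit ANAPC16 was a higher DEG with both, at 0.82 and 0.79. The 18 genes of cohesin and condensin II had medians of −0.02 with each inhibitor, with 8 lower and 7 higher with JQ1 and 6 of each with I-BET-762, and SGO1, the protector of centromeric cohesion, was a lower DEG at −1.27 and −0.86. Of 31 centrosome and spindle assembly genes, 12 fell and 10 rose with JQ1 (median 0.01), and 13 fell and 8 rose with I-BET-762 (median 0.00). HAUS3, of the augmin complex that nucleates spindle microtubules, rose by 1.16 and 0.97. HAUS3 shares 39.9% of its exon bases with other genes on the same strand, CENPN 23.1% over both strands and SGO1 15.8% on the opposite strand. The part of this sharing in their counts was not tested. The 10 genes of phosphatases of mitotic entry and exit and of their regulators had medians of 0.26 and 0.19. Of these, 7 were higher and 2 lower with JQ1, and 6 higher and 0 lower with I-BET-762. ENSA, which inhibits the phosphatase PP2A in mitosis, rose by 0.69 and 0.63.

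Among the regulators of late cell cycle transcription, more genes fell than rose. Of 17 genes of the DREAM complex, the MYB-MuvB complex, the E2F family and FOXM1, 10 fell and 2 rose with JQ1 (median −0.39, with 35.6% and 36.0% of all tested genes called), and 10 fell and 0 rose with I-BET-762 (median −0.29, with 31.3% and 29.9% called). FOXM1 (ENSG00000111206.13, chr12:2857680-2877174), the forkhead activator that works with B-MYB, had 3914, 3569 and 3702 counts with DMSO, 1075, 1134, 1286 and 1367 with JQ1, and 1947, 1842 and 1854 with I-BET-762. Its groups were wide apart. The changes of −1.62 (SE 0.07, adjusted p = 1.50e-11 by limma) and −0.99 (SE 0.08, adjusted p = 2.59e-08 by limma) exceeded those of AURKA with both inhibitors. FOXM1 also differed between the inhibitors, by −0.64 (95% interval −0.79 to −0.48, adjusted p = 1.69e-05 by limma), past 1.5-fold. It shares 15.9% of its exon bases with a gene on the opposite strand, whose part in the counts was not tested. E2F2, an activator of replication genes, changed by −1.78 and −1.29, and the repressors E2F8 (−1.13 and −0.82) and E2F7 (−0.90 and −0.62) were lower DEGs with both inhibitors.

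**Figure D5:**
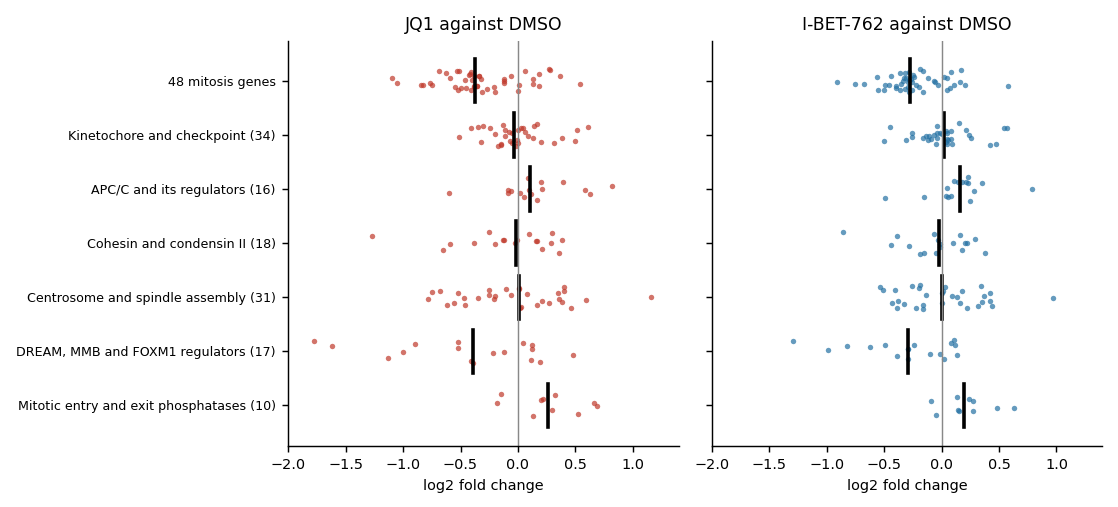
Log2 fold changes against DMSO of the 48 mitosis genes and of 6 lists of related genes, 1 point a gene, with JQ1 on the left, I-BET-762 on the right and a black bar at each list's median. The medians of the 48 genes (−0.37 and −0.28) and of the DREAM, MMB and FOXM1 regulators (−0.39 and −0.29) lie below 0. Those of the phosphatases and their regulators (0.26 and 0.19) lie above it, and the others between −0.03 and 0.16. These medians are on the deposited scaling, under which the median of all genes is near 0.

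Reads on genes ranged from 35564587 to 39658994 over the 10 libraries, and 3 reads, the limit that a count of 0 allows, correspond to 2.73 to 3.30 normalized counts, for counting error only. SPC25 came nearest to that limit among the 48 genes. The summed level of 6 smooth muscle markers was 17766 to 18836 normalized counts with DMSO, 7935 to 8620.4 under JQ1 and 9189 to 9599.5 under I-BET-762, with MYOCD at or under the 3-read limit in all groups. That of 5 epithelial markers was 1212 to 1271, 511 to 602 and 497 to 544, with CDH1 at or under the limit under I-BET-762. MYH11 of smooth muscle and CD3E of leukocytes were also looked for and had no values. Leukocyte markers summed to at most 37.0, with PTPRC at or under the limit, and endothelial markers to at most 7.40. The part of these shifts in the values of the mitosis genes was not tested.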

How the data were processed

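RNA of SK-UT-1 cells was sequenced from strand-specific total RNA libraries. According to the paper and the submitters' processing notes, the authors checked reads with FastQC 0.73, trimmed them with Trimmomatic, aligned them to hg38 with HISAT2 2.2.1, counted them with featureCounts 2.0.3 on Gencode genes and normalized with DESeq2, leaving out samples judged to be outliers. The values deposited by the authors are log2 of the normalized count plus 1 per gene symbol and library. How identifiers were merged into symbols and the strand setting of the counting are not given in the sources used here. Replicate 16 of the DMSO group and replicate 24 of the I-BET-762 group were not analysed here, because the values used include none for them.

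Undoing the log2 and the added 1 gave normalized counts, and within each library 99.64% to 99.80% of them were whole multiples of 1 step (within 0.1 step), which gave the reads behind each value and size factors of 0.9101 to 1.0989. Genes with at least 10 normalized counts in at least 3 libraries were tested. The log2 values of all 10 libraries were fitted in 1 linear model with limma 3.58.1 (R 4.3.3), with empirical Bayes moderation and an intensity trend, and p-values were adjusted by Benjamini-Hochberg over the 14839 genes tested. Calls required an adjusted p-value below 0.05, and DEGs in addition more than a 1.5-fold change. The code was tested on simulated data. Tables used pandas 2.3.3 and numpy 2.4.6 under Python 3.11.15, and figures matplotlib 3.10.9. Positions, identifiers and exon sharing are from Gencode V44 on hg38, and promoters from RefSeq.

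The 48 genes, the further lists and the tests were chosen with earlier results of these data known. Values by library are given for members that were DEGs in any comparison and, in each role group, for the members with the largest rise and the largest fall. From each further list the text names the genes that were DEGs with both inhibitors (at most 4), or the gene with the largest mean change. Showing FOXM1 by library was chosen after its values were seen, as were the 6 promoters printed. Alternatives were pseudocounts of 0.5 and 5, all genes above 0, a mean of at least 100 normalized counts, equal totals, equal upper quartiles, no trend, only the 2 groups compared, a 2-fold threshold, limma-voom on the recovered reads, and leaving out each library.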

Additional observations from a re-analysis of the deposited data

Results flagged for a closer look

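In groups of 4 libraries, a library was marked when its gap to the nearest of the others, as a share of the group's range, exceeded Dixon's 95% critical value. This was tested in the JQ1 group alone, for all 48 genes, and marked 5 of them, where chance marks about 1 group in 20. JQ1 replicate 18 stood above the others for TTK, with 7619 normalized counts against 6017 to 6191. It also stood above them for PTTG1 (7693 against 6001 to 6127), NCAPG (13565 against 11186 to 11572) and DLGAP5 (10436 against 8160 to 8394). For UBE2C, JQ1 replicate 20 stood below the others, with 4370.4 against 4729 to 4788. The 5 genes come from the same libraries and are not independent of each other. The cause was not tested.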

How the results depend on the processing

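No paired analysis was possible because the replicate numbers 13 to 24 all differ between groups. Over the alternatives, 31 of the 34 genes lower with JQ1 and 26 of the 33 lower with I-BET-762 held their call under each one, as did CDC20 and NCAPH of the 7 higher with JQ1, NCAPH of the 3 higher with I-BET-762, 6 of the 11 lower and 0 of the 2 higher with JQ1 against I-BET-762. Equal totals moved most. With JQ1 they gave 2 higher genes, 20 lower DEGs and a median of −0.55, with I-BET-762 1 higher gene, 7 lower DEGs and a median of −0.37, and between the inhibitors 27 lower genes, 0 higher and a median of −0.18. CDC25A (−0.13), CDC25B (−0.05), BUB1 (−0.06), NCAPG (−0.01), SMC4 (−0.01) and ANLN (−0.17) changed sign with JQ1, and CDC25B, SPC25, NCAPG, SMC4 and ANLN with I-BET-762. Equal totals shifted the median of all genes as well (−0.18 under JQ1, −0.10 under I-BET-762). Equal upper quartiles gave 3 higher genes, 14 lower DEGs and a median of −0.48 with JQ1, 5 lower DEGs and a median of −0.34 with I-BET-762, and 1 gene higher with JQ1 than with I-BET-762. A fold change over 2 left 2 lower DEGs with JQ1 and 0 with I-BET-762. Fitting only the 2 groups compared gave 5 higher genes with I-BET-762 and 1 gene higher with JQ1 than with I-BET-762, and no trend gave 7 lower there. Leaving out each library gave 31 to 37 lower and 6 to 7 higher genes with JQ1, 27 to 35 lower and 2 to 5 higher with I-BET-762 (5 without JQ1 replicate 18), and 6 to 21 lower and 1 to 4 higher between the inhibitors. Lower DEGs then numbered 8 to 11 under JQ1 and 3 to 4 under I-BET-762, and higher DEGs 0 to 1 with I-BET-762. Equal totals and equal upper quartiles by construction move all genes of a library by nearly the same log2 amount. A higher fold threshold by construction leaves fewer DEGs. Why totals and upper quartiles differ between the libraries was not tested, nor was the cause of the other shifts.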
